A study of Homo sapiens with 6 samples.

Results

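AKR1C1, AKR1C2, AKR1C3, AKR1B1 and AKR1B10 are 5 human aldo-keto reductases, chosen here by gene symbol out of 17160 genes listed in the deposited counts. All 5 were listed for all 6 libraries, as were 16000 genes in total. They were chosen with their ratios between derived and parental lines already known, so those ratios are described and not tested. Expression was measured by RNA sequencing in lung adenocarcinoma cell lines, with 1 library per line and no replicate. PC-9 and HCC827, both with an activating mutation of EGFR, served as parents. The derived lines, selected for resistance to EGFR tyrosine kinase inhibitors, were PC-9GR, PC-9ER, HCC827GR (HCC82GR in its label) and HCC827ER. What GR and ER stand for is not in the labels, nor are a drug, a dose or the number of clones behind a line. All 6 lines were grown in RPMI-1640 with fetal bovine serum, and the design text asks which signalling pathways lie behind the resistance. A level is an average over all cells of a culture, so few cells with much of a transcript and many with little cannot be told apart.

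Total counts ranged from 14529332 (HCC827) to 17859787 (PC-9GR), with 14756 to 15096 detected genes in each. The library labelled PC-9GR did not resemble PC-9. Across 16000 genes its Spearman correlation was 0.825 with PC-9 and 0.868 with HCC827GR, against 0.970 between PC-9ER and PC-9. In this library 221 genes had at least 10 CPM (counts scaled to 1000000 per library) after at most 3 counts in PC-9, where the other 3 pairs had 2, 12 and 15 such genes. Its values are therefore given as those of the library labelled PC-9GR, and results that pool the lines are also given without it. Genes of ribosomal proteins took 16.1% of the counts of HCC827ER and 5.85% to 8.50% elsewhere. Scaling by total counts put the median log2 ratio of all genes at -0.35 in HCC827ER against HCC827 and at -0.02 to 0.06 in the other pairs. Both ER lines were deposited in a separate table from the other 4 libraries, so a difference between tables and one between ER and the other lines cannot be told apart. Of the lung and epithelial markers the keratins KRT8 (1427 to 5359 CPM) and KRT18 (1118 to 4123) were present in every library, but others were low in some derived lines. KRT19, at 1939 CPM in PC-9 and 2159 in HCC827, had log2 ratios to its parent of -7.20 (PC-9GR), -0.86 (PC-9ER), -3.26 (HCC827GR) and -1.89 (HCC827ER). Those of EPCAM, at 383 and 460.3 CPM in the parents, were -7.57, 0.08, -3.98 and -2.11 in the same order. Of this list 5 of 8 measured genes were at least 2-fold lower in the PC-9GR pair, as were 20.9% of all genes. In PC-9ER 2 of 9 were (7.60% of all genes), in HCC827GR 8 of 9 (8.79%) and in HCC827ER 7 of 9 (28.3%). With TMM scaling 5 of 9 were lower in HCC827ER, beside 2412 of 12599 genes. Summed CPM ranged from 0.577 to 7.33 for leukocyte markers, 0.703 to 123 for squamous and basal markers, 2.66 to 243 for fibroblast and endothelial markers and 7.83 to 223 for hepatocyte markers, of which ALB did not exceed 0.0592 CPM. The part of these differences in the members' values was not tested.

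Aldo-keto reductases are soluble enzymes that use NADPH to reduce aldehydes and ketones to alcohols. The AKR1C enzymes act on steroids and prostaglandins as well as on reactive aldehydes from lipid peroxidation, and AKR1B enzymes act on sugars, retinaldehyde and other aldehydes. Several of them are classic targets of NRF2 (the product of NFE2L2), the transcription factor of the oxidative stress response that KEAP1 holds in check. They are known to be high in lung tumours with an active NRF2 pathway, and AKR1B10 is a known marker of smoking-related lung cancer.

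The AKR1C genes lie together on chromosome 10 (GENCODE v29, GRCh38): AKR1C1 (NCBI gene 1645) at 4963253 to 4983283 on the plus strand, AKR1C2 (1646) at 4987400 to 5018031 on the minus strand and AKR1C3 (8644) at 5035354 to 5107686 on the plus strand. On chromosome 7, AKR1B1 (231) is at 134442350 to 134459284 on the minus strand and AKR1B10 (57016) at 134527592 to 134541408 on the plus strand. The counts cover whole genes, so the values below belong to all annotated exons of a gene together. How far they can be told apart depends on their sequences. The start of each coding sequence from GENCODE v29, bases 1 to 120 counted from the A of the start codon, shows how close the paralogs are. Capitals in AKR1C1 and AKR1C3 mark bases that differ from AKR1C2, and capitals in AKR1B1 mark bases that differ from AKR1B10.
AKR1C2: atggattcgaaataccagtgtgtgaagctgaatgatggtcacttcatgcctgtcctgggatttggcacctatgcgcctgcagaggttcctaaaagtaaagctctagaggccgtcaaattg
AKR1C1: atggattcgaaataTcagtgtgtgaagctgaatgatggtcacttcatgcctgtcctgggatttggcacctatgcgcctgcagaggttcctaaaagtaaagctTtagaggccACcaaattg
AKR1C3: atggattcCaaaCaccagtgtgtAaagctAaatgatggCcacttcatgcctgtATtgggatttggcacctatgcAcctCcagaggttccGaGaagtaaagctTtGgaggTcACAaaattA
AKR1B10: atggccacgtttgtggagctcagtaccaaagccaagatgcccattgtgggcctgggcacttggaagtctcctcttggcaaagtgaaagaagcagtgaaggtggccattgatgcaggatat
AKR1B1: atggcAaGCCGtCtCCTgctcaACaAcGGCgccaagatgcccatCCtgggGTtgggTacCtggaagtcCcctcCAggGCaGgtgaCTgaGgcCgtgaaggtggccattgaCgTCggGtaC

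In this stretch AKR1C1 differs from AKR1C2 at 4 bases, AKR1C3 from AKR1C2 at 18 and AKR1B1 from AKR1B10 at 36. Over the whole coding sequence of 969 bases, AKR1C1 and AKR1C2 differ at 19 bases (98.0% identity) and AKR1C2 and AKR1C3 at 87 (91.0%). AKR1B1 and AKR1B10, of 948 bases each, differ at 235 (75.2%). Of the windows of 50 bases in the AKR1C2 coding sequence, 57.1% occur unchanged in a transcript of another gene, as do 54.3% for AKR1C1 and 23.0% for AKR1C3. For AKR1B10 the share is 28.5%, with matches in AKR1B15 and a pseudogene, and for AKR1B1 it is 7.23%, with matches in pseudogenes. At windows of 100 bases the shares were 26.4% for AKR1C2, 20.7% for AKR1C1, 9.77% for AKR1C3, 3.53% for AKR1B10 and 0% for AKR1B1. In the deposited counts AKR1B1 was whole in all 6 libraries, AKR1B10 was fractional in the library labelled PC-9GR alone, and 17 of the 18 values of the AKR1C genes were fractional. By what rule the counting divided shared reads is not known here. The AKR1C values of each library added up to a whole number within rounding, as with 11.02 for AKR1C2 and 202.98 for AKR1C3 in HCC827. Values of single AKR1C genes are therefore uncertain, and their sum is given beside them.

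AKR1C1 and AKR1C2 also share nearly the same sequence before their start sites. In the RefSeq promoter windows (GRCh38.p14, 250 bases before the start), 246 aligned bases of AKR1C1 and AKR1C2 differ at 1 base. The windows of AKR1C3 at its start at 5094414 and of AKR1C2 were 57.6% identical without gaps, which understates likeness where bases were inserted or lost. A CCAAT box, searched as CCAAT on both strands, is held by 34.6% of 35116 promoter windows of 300 bases. It occurs in every window found for the AKR1C members and AKR1B1, and no window was found for AKR1B10. The 30 bases around it are shown with the box in capitals, read along the gene's own strand, to show the letters beside the box in each gene.
AKR1C1, chr10:4963326-4963355, plus strand: ctctcacatgccATTGGttaaccagcagac
AKR1C2, chr10:5003921-5003950, minus strand: ctctcacatgccATTGGttaaccagcagac
AKR1C3, chr10:5094316-5094345, plus strand: ctcctacatgccATTGGttaaccatcagtc
AKR1C3, chr10:5048696-5048725, plus strand: cttttacatgctATTGGttaaccattaggc
AKR1B1, chr7:134459181-134459210, minus strand: cccccagcgcaaCCAATcagaaggctcctt

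The box is reversed (ATTGG) in the AKR1C windows and forward (CCAAT) in AKR1B1. The core of the antioxidant response element to which NRF2 binds, TGACNNNGC on either strand, occurs in 13.3% of all windows and in none of those found for the members. The AP-1 motif TGANTCA, which begins with the same letters, occurs in 7.71% of all windows and also in none of these. At such shares an absence from so few windows says little, and sites more than 250 bases before a start were not searched. TATAAA occurs in 11.5% of all windows and in the AKR1C3 window that starts at 5048781. The starts of AKR1C1, AKR1C2 and AKR1C3 in GENCODE v29, given above, lie further upstream than these RefSeq starts.

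AKR1C2, which inactivates dihydrotestosterone and reduces other ketosteroids, was higher in each derived line than in its parent, by 39.0-fold or more. It was at 66.0 CPM in PC-9, 4750.2 in the library labelled PC-9GR and 2578 in PC-9ER. In the HCC827 family it was at 0.758 CPM in HCC827 (11.02 counts), 35.6 in HCC827GR and 429 in HCC827ER. The 4 derived lines do not lie above both parents, because HCC827GR was below PC-9. The log2 ratios, with a prior count of 2, were 6.17, 5.28, 5.34 and 8.93 in the pairs PC-9GR, PC-9ER, HCC827GR and HCC827ER, an order kept in the lists of 4 ratios that follow. As plain ratios of CPM these were 72.0-fold (95% counting interval 67.8 to 76.4), 39.0-fold (36.8 to 41.5), 46.9-fold (26.1 to 94.7) and 565-fold (316 to 1134). The wide intervals in the HCC827 pairs come from the few counts in HCC827. By its smallest ratio over the 4 pairs AKR1C2 ranked first of 13778 genes, a description only, since it was chosen for these ratios.

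AKR1C1, which inactivates progesterone, had the largest ratio of the 5 genes in the PC-9GR pair and a small one in HCC827GR. Its CPM was 8.06 in PC-9, 1572 in the library labelled PC-9GR and 134 in PC-9ER. In the HCC827 family it was 0.551 in HCC827 (8 counts), 1.50 in HCC827GR and 39.0 in HCC827ER. The log2 ratios were 7.59, 4.03, 1.27 and 5.86. In HCC827GR the ratio rested on 22.43 against 8 counts, 2.72-fold with an interval of 1.14 to 6.93. The level there was below that of PC-9, so AKR1C1 rested on few counts in 2 of the 6 lines.

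AKR1C3, which makes testosterone from androstenedione and forms F-type prostaglandins, was higher in 3 of the 4 derived lines, with HCC827GR near its parent. It was at 26.9 CPM in PC-9, 1557 in the library labelled PC-9GR and 380.4 in PC-9ER. HCC827 had 14.0 CPM, HCC827GR 16.8 and HCC827ER 165. The log2 ratios were 5.85, 3.82, 0.27 and 3.55. The interval in HCC827GR, 0.997 to 1.46-fold, includes no difference. AKR1C3 was the AKR1C gene that differed least between the parents, 1.92-fold higher in PC-9 than in HCC827.

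The 3 AKR1C genes together were at 101 CPM in PC-9, 7878 in the library labelled PC-9GR and 3092 in PC-9ER, a sum that depends less on how reads were divided among them. The sum was 15.3 CPM in HCC827, 53.9 in HCC827GR and 633 in HCC827ER. All 4 derived lines exceeded their own parent, by 78.0-fold (74.4 to 81.9), 30.6-fold (29.2 to 32.2), 3.53-fold (3.04 to 4.11) and 41.4-fold (36.3 to 47.5). Thus the sum in HCC827GR differed far less from its parent than AKR1C2 alone did, since AKR1C3, the main AKR1C gene of HCC827, was at nearly the same level in both.

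**Figure D1:**
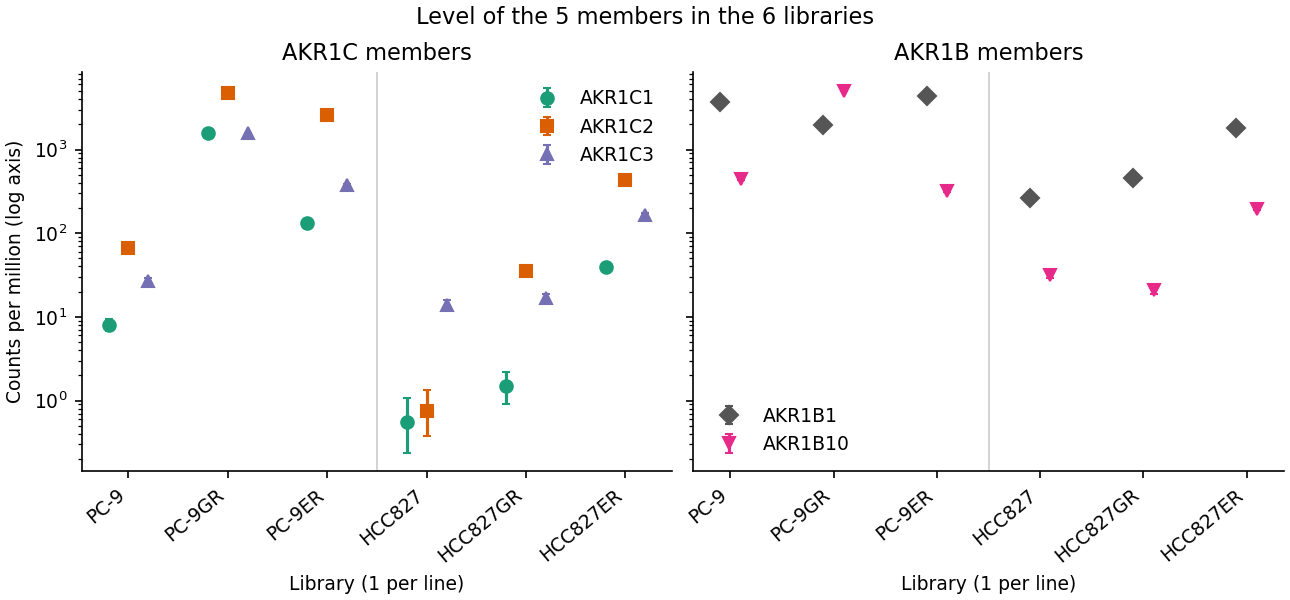
CPM (log axis) of the AKR1C genes (left) and AKR1B genes (right) in the 6 libraries, with 95% counting intervals as bars where they exceed the symbol and a line between the PC-9 and HCC827 families. AKR1C2 is lowest in HCC827, at 0.758 CPM, and highest in the library labelled PC-9GR, at 4750.2, while AKR1B1 is at or above 265 CPM in all 6.

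AKR1B1, aldose reductase, which converts glucose to sorbitol in the polyol pathway, was the highest of the 5 by CPM per kilobase of coding length in all libraries except PC-9GR, and its ratios had no common direction. It was at 3673 CPM in PC-9, 1981 in the library labelled PC-9GR and 4309 in PC-9ER. HCC827 had 265 CPM, HCC827GR 462 and HCC827ER 1821. The log2 ratios were -0.89, 0.23, 0.80 and 2.78, so it was lower than its parent in the library labelled PC-9GR and 6.88-fold higher in HCC827ER (6.65 to 7.11). With total counts as the scale, the 3 HCC827 libraries all lay below the 3 PC-9 libraries. With TMM scaling the log2 ratio was 3.13 in the HCC827ER pair, -0.84 in the PC-9GR pair and -3.81 in HCC827 against PC-9. By these HCC827ER lay above the library labelled PC-9GR, so that order depends on the scaling.

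AKR1B10, which reduces retinaldehyde and long-chain aldehydes, was higher than its parent in the library labelled PC-9GR and in HCC827ER, and lower in the other 2 derived lines. It was at 447 CPM in PC-9, 5057 in the library labelled PC-9GR and 316 in PC-9ER. HCC827 had 32.0 CPM, HCC827GR 20.8 and HCC827ER 195. The log2 ratios were 3.50, -0.50, -0.62 and 2.60, or 11.3-fold (11.1 to 11.6), 0.708-fold (0.683 to 0.733), 0.651-fold (0.562 to 0.753) and 6.09-fold (5.53 to 6.73). The division was thus 1 GR and 1 ER line on each side. PC-9ER combined an AKR1C sum 30.6-fold above its parent with an AKR1B10 level below it.

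These ratios were set beside those of all genes with at least 1 CPM in either library of a pair. A log2 ratio of at least 1 was reached by 20.9% of 13017 genes in the PC-9GR pair, where 4 of the 5 members reached it, by 5.49% of 12286 in the PC-9ER pair (3 of 5), by 8.18% of 12595 in the HCC827GR pair (2 of 5) and by 11.3% of 12599 in the HCC827ER pair (5 of 5). No member was at least 2-fold lower in any pair. In the HCC827ER pair 1421 genes were at least 2-fold higher and 3571 lower with total counts as the scale, and 2227 and 2412 with TMM scaling. Relative to the median of all genes in that pair the log2 ratios of AKR1C1, AKR1C2, AKR1C3, AKR1B1 and AKR1B10 were 6.22, 9.28, 3.91, 3.13 and 2.96.

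Where the members stood among all genes differed by pair. In the PC-9ER pair only 4 genes had a higher ratio than AKR1C2, 14 than AKR1C1 and 18 than AKR1C3, whereas 9900 lay above AKR1B10. In the HCC827ER pair 1 gene had a higher ratio than AKR1C2. In the HCC827GR pair 26 genes were above AKR1C2 and 752 above AKR1C1. In the PC-9GR pair, the one with the widest spread of ratios, 246 genes were above AKR1C2 and 102 above AKR1C1. A ratio of at least 2-fold in all 4 pairs was found for 0.406% of 13778 genes, 56 in number, AKR1C1 and AKR1C2 among them. Without the library labelled PC-9GR, 104 genes met this in the 3 remaining pairs, again with AKR1C1 and AKR1C2, and without HCC827ER 100 did. A higher value of any size in all 4 pairs was found for 9.81% of genes and included AKR1C3. Pairs of a family share their parental library, so they are not independent.

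**Figure D2:**
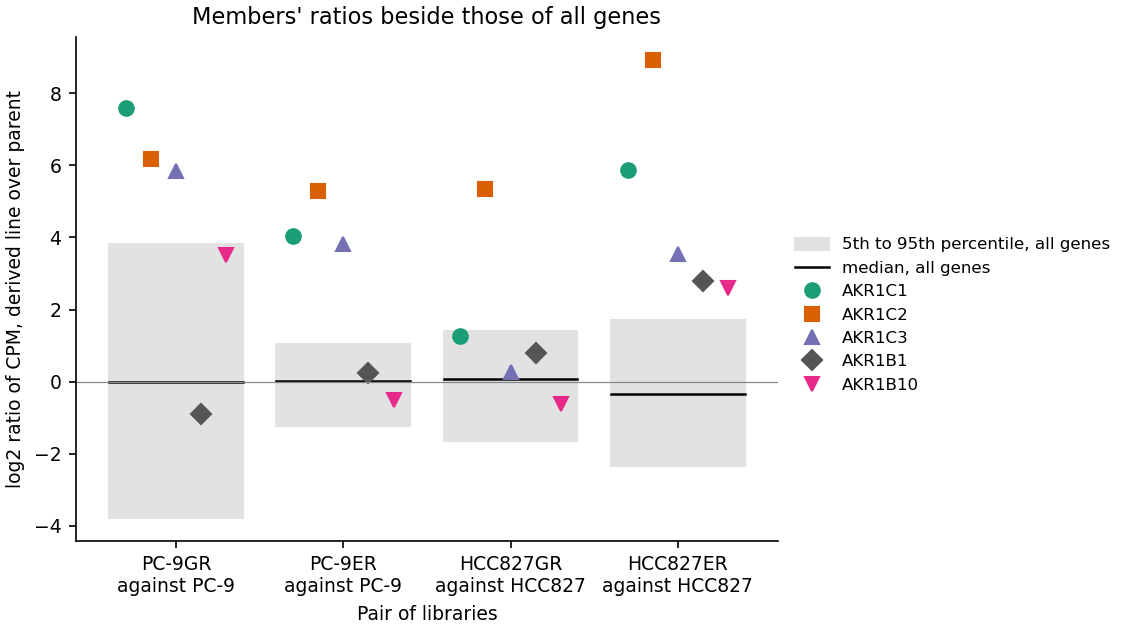
Log2 ratio of CPM of each member (symbols) in each derived line over its parent, with the 5th to 95th percentile of all genes (grey) and their median (black line). The AKR1C genes lie above the grey range in the PC-9GR, PC-9ER and HCC827ER pairs, and only AKR1C2, at 5.34, does so in HCC827GR.

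In a fit of all 6 libraries with the family as a block, resistant lines had AKR1C2 at a log2 fold change of 6.90 ± 1.66 (SE), AKR1C1 at 6.19 ± 2.05, AKR1C3 at 3.98 ± 1.43, AKR1B10 at 2.35 ± 1.45 and AKR1B1 at 0.88 ± 0.98. The standard errors, taken as the absolute log2 fold change over the square root of the F statistic, reflect the spread between lines. Spread between cultures is part of it and cannot be told apart. Without the library labelled PC-9GR the values were 6.89, 4.75, 3.35, 0.90 and 1.41. AKR1B10 thus went from 2.35 to 0.90, with standard errors of 1.45 and 1.23. AKR1B1 took the value -0.21 without HCC827, which leaves only the PC-9 family to inform it. In this fit 0% of 13492 genes were called at an adjusted p of 0.05 (edgeR), with 342 genes at an unadjusted p under 0.05. DESeq2 called 34 genes and limma-voom 0. Within the PC-9 family edgeR called 0% of 14233 genes (132 unadjusted, DESeq2 102, limma-voom 0), and within the HCC827 family 0% (193 unadjusted, DESeq2 44, limma-voom 0). Without PC-9ER or without PC-9GR, edgeR had a single PC-9 pair and took all its spread from the HCC827 derived lines, so its calls for that pair are not given. In the HCC827 family it called 161 genes without PC-9GR and 154 without PC-9ER, where the spread comes from the HCC827 derived lines alone. With 1 library per line, the p-values rest on the spread between lines and cultures together, and repeat cultures would be needed for any line on its own.

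AKR1C2 took the largest part of the AKR1C counts in 5 libraries and AKR1C3 in HCC827. AKR1C2 received 65.4% of the AKR1C counts in PC-9 (Wilson 95% interval 63.1 to 67.6), 66.0% in HCC827GR, 67.7% in HCC827ER and 83.4% in PC-9ER. The share in the library labelled PC-9GR was 60.3%. In HCC827 it received 4.95% (2.79 to 8.65) and AKR1C3 91.4% (87.0 to 94.5). AKR1C1 took 2.73% to 7.97% in all libraries except the one labelled PC-9GR, where it took 19.9% (19.7 to 20.2). AKR1C3 took 12.3% (12.0 to 12.6) in PC-9ER and 19.8% to 31.2% in the other 4 libraries apart from HCC827. The intervals cover counting error only, and the division of shared reads among paralogs adds an uncertainty that the counts do not show.

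**Figure D3:**
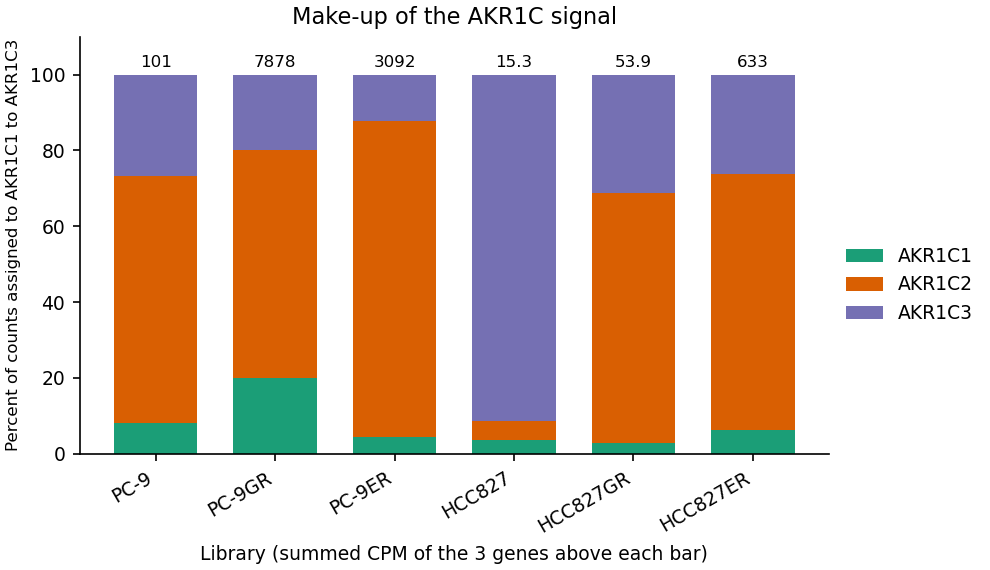
Percent of the counts of AKR1C1, AKR1C2 and AKR1C3 that each received per library, with the summed CPM above each bar. AKR1C3 holds 91.4% in HCC827, the library with the lowest sum (15.3 CPM), and AKR1C2 holds 60.3% to 83.4% in the other 5.

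Levels of different genes were compared per kilobase of coding length. By CPM per kilobase, AKR1B10 ranked 11 of 15405 genes in the library labelled PC-9GR, at 5334, and AKR1C2 ranked 13, at 4902. AKR1B1 ranked 12 in PC-9, at 3874, and 15 in PC-9ER, at 4546, where AKR1C2 ranked 30. In HCC827 the highest member was AKR1B1 at rank 590, while AKR1C2 was at rank 11828. All 5 genes together took 0.422% of the counts in PC-9, 1.49% in the library labelled PC-9GR and 0.772% in PC-9ER. In HCC827, HCC827GR and HCC827ER they took 0.0312%, 0.0537% and 0.265%.

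Parental lines and derived lines of the same family also differed from each other. PC-9 exceeded HCC827 by 87.0-fold in AKR1C2, 14.6-fold in AKR1C1, 13.9-fold in AKR1B1 and 14.0-fold in AKR1B10, with 1 library each. PC-9ER had less than the library labelled PC-9GR of AKR1B10 (16.0-fold), AKR1C1 (11.8-fold), AKR1C3 (4.09-fold) and AKR1C2 (1.84-fold), and 2.18-fold more AKR1B1. In the HCC827 family the order was reversed for 4 of the genes: HCC827ER exceeded HCC827GR in AKR1C1 (26.1-fold), AKR1C2 (12.0-fold), AKR1C3 (9.84-fold) and AKR1B10 (9.36-fold), and also in AKR1B1 (3.94-fold). As log2 ratios these 5 values, in the order AKR1C1, AKR1C2, AKR1C3, AKR1B10 and AKR1B1, were 4.60, 3.59, 3.29, 3.22 and 1.98, and with TMM scaling 4.99, 3.99, 3.69, 3.62 and 2.38.

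The nearest measured protein-coding genes, apart from the related reductases, had ratios of mixed sign that stayed between -2.19 and 1.77. On the side of AKR1C1, PITRM1, a mitochondrial peptidase, had log2 ratios of -1.10, -0.25, 0.48 and -0.94, and KLF6, a transcription factor, -0.73, 0.24, 1.77 and 0.21. AKR1E2, a reductase of the same superfamily, had 182 counts in the library labelled PC-9GR against 0 in PC-9, at least 57.4-fold higher by a floor of 3 counts in PC-9, and at most 2 counts in the other libraries. AKR1C4, the liver member of the cluster, had 20 counts in the library labelled PC-9GR and 0 in PC-9, HCC827 and HCC827GR. No value of it is listed for the ER lines. Beside the AKR1B genes, EXOC4, a vesicle tethering protein, had log2 ratios of 0.80, -0.24, 0.32 and 0.11, and BPGM, a red cell glycolytic enzyme, 0.65, 0.91, -0.27 and 1.15. AKR1B15, the close relative of AKR1B10, was at 8.76, 6.21 and 24.7 CPM in PC-9, PC-9GR and PC-9ER and at 0.549 to 1.02 in the HCC827 family. In PC-9ER it was thus higher than in its parent while AKR1B10 was lower. The 2 genes share part of their coding sequence, but the AKR1B10 counts of this pair were whole (7547 in PC-9 and 5451 in PC-9ER). AKR1B15 had 148 counts in PC-9 and a fractional 425.69 in PC-9ER.

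**Figure D4:**
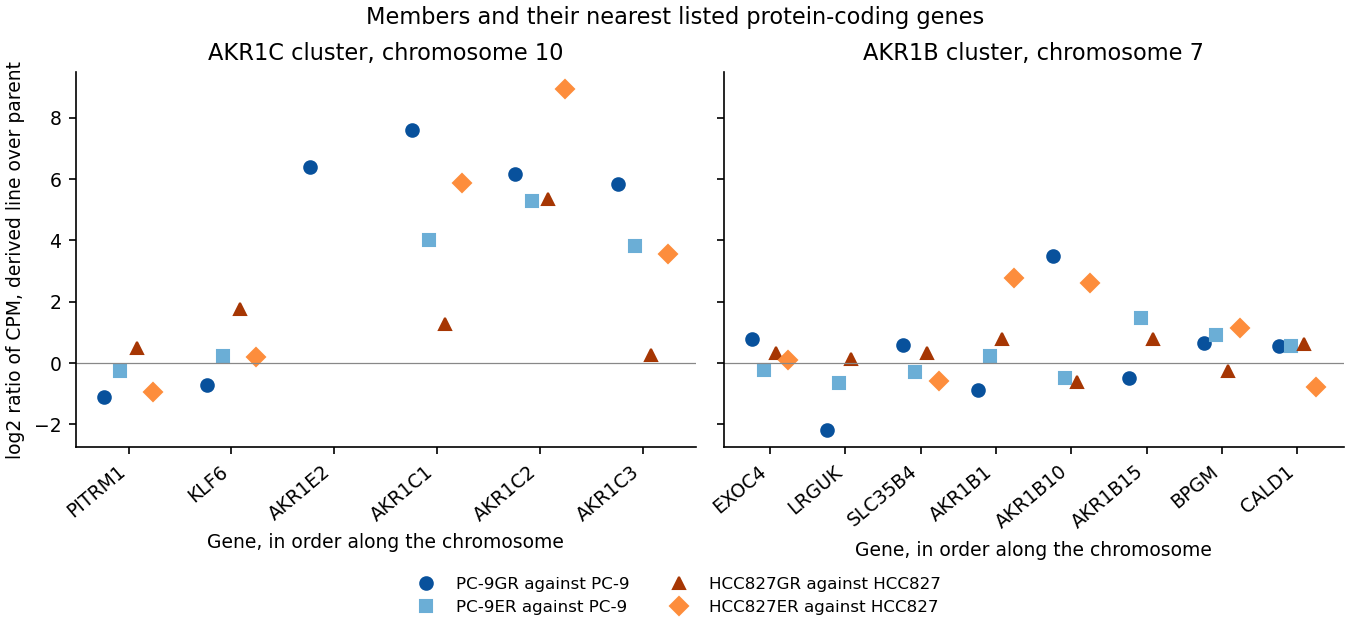
Log2 ratio of CPM, derived line over parent, for the members and the nearest listed protein-coding genes in chromosomal order, shown where either library had at least 1 CPM. On chromosome 10 the AKR1C genes reach up to 8.93, while PITRM1 and KLF6 stay between -1.10 and 1.77.

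The remaining aldo-keto reductases, a list of 13, had no common direction. AKR1A1, aldehyde reductase, was at 56.2, 91.5 and 60.7 CPM in PC-9, PC-9GR and PC-9ER and at 64.6, 56.8 and 150.4 in HCC827, HCC827GR and HCC827ER, with a log2 ratio of 1.22 in the last pair (1.57 with TMM scaling). AKR7A2, which reduces succinic semialdehyde, was at 43.1 to 69.7 CPM, with log2 ratios of -0.11, -0.06, 0.02 and 0.69 (1.04 in the last with TMM scaling). KCNAB2, a potassium channel subunit with an aldo-keto reductase fold, was higher in each derived line than in its parent, with log2 ratios of 2.37, 0.98, 1.36 and 2.30 and a fitted log2 fold change of 2.03 ± 0.67 (edgeR adjusted p = 0.999). Its relative KCNAB1, at 0.680 to 2.22 CPM, was lower in each derived line, with log2 ratios of -1.03, -0.49, -0.07 and -1.49, and KCNAB3 had 0.28, -0.31, 0.37 and -1.30. In the fit 4 of 6 tested genes of this list had a positive value, with a median of 0.48, and 0 were called. Over all genes 53.2% were positive, with a median of 0.04.

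NRF2 targets other than the members were mostly higher in the library labelled PC-9GR than in PC-9. Of 38 measured targets, 24 were at least 2-fold higher and 3 lower in that pair (median log2 ratio 1.47), where 20.9% of all genes were higher and 20.9% lower. In the PC-9ER pair 7 were higher and 2 lower (0.39), beside 5.49% and 7.60% of all genes. In the HCC827GR pair 2 of 37 were higher and 3 lower (median -0.06), beside 8.18% and 8.79%. In the HCC827ER pair 6 were higher and 3 lower (0.21), beside 11.3% and 28.3%. With TMM scaling 12 were higher and 3 lower there (0.56), beside 2227 and 2412 of 12599 genes, whose median was then -0.00. With total counts as the scale, the median of all genes was -0.02, 0.03, 0.06 and -0.35 in these pairs. In the fit of all lines 36 of 38 targets were positive with a median of 0.67, and without the library labelled PC-9GR 28 of 38 with a median of 0.33, so this list rested in part on that library. By edgeR 0 of the 38 passed in either direction, and DESeq2 called HMOX1 (log2 fold change 2.60 ± 0.66, DESeq2 adjusted p = 0.0377).

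Single targets differed in their pattern. HMOX1, heme oxygenase, was at 31.3, 279 and 64.7 CPM in PC-9, PC-9GR and PC-9ER and at 21.7, 173 and 92.5 in HCC827, HCC827GR and HCC827ER, above its parent in every derived line. NQO1, a quinone reductase often read as an NRF2 marker, was at 697, 2454 and 913 CPM in the PC-9 family and at 434, 235 and 534 in the HCC827 family. HCC827GR, where AKR1C2 was 46.9-fold above HCC827, thus had less NQO1 than its parent. SLC7A11, the cystine transporter, had log2 ratios of 1.21, 0.21, 0.88 and -1.59. GCLM, a subunit of the glutathione-making ligase, had 0.30, 0.72, 0.37 and -0.87, and TXNRD1, thioredoxin reductase, 0.62, -0.01, 0.33 and -0.29. With TMM scaling the direction of TXNRD1 in HCC827ER was not kept (0.06). FTL, the ferritin light chain, was at 15224 CPM in the library labelled PC-9GR against 2198 in PC-9, with log2 ratios of 2.79, 1.25, 0.27 and 1.53.

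The regulators of NRF2 had no common direction, with 7 of 12 positive in the fit (median 0.05) and 0 called by edgeR. NFE2L2 itself was at 106, 130.0 and 129 CPM in PC-9, PC-9GR and PC-9ER and at 163, 102 and 64.9 in HCC827, HCC827GR and HCC827ER. KEAP1 was at 149, 88.0 and 184 CPM in the PC-9 family and at 81.4, 121 and 85.8 in the HCC827 family. SQSTM1, the autophagy receptor that binds KEAP1, was higher in all 4 derived lines, with log2 ratios of 1.60, 0.73, 2.18 and 1.59. BACH1, a repressor at NRF2 sites, had log2 ratios of -1.74, -0.93, -0.00 and -1.43. These are transcript levels and say nothing of protein or of mutations.

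**Figure D5:**
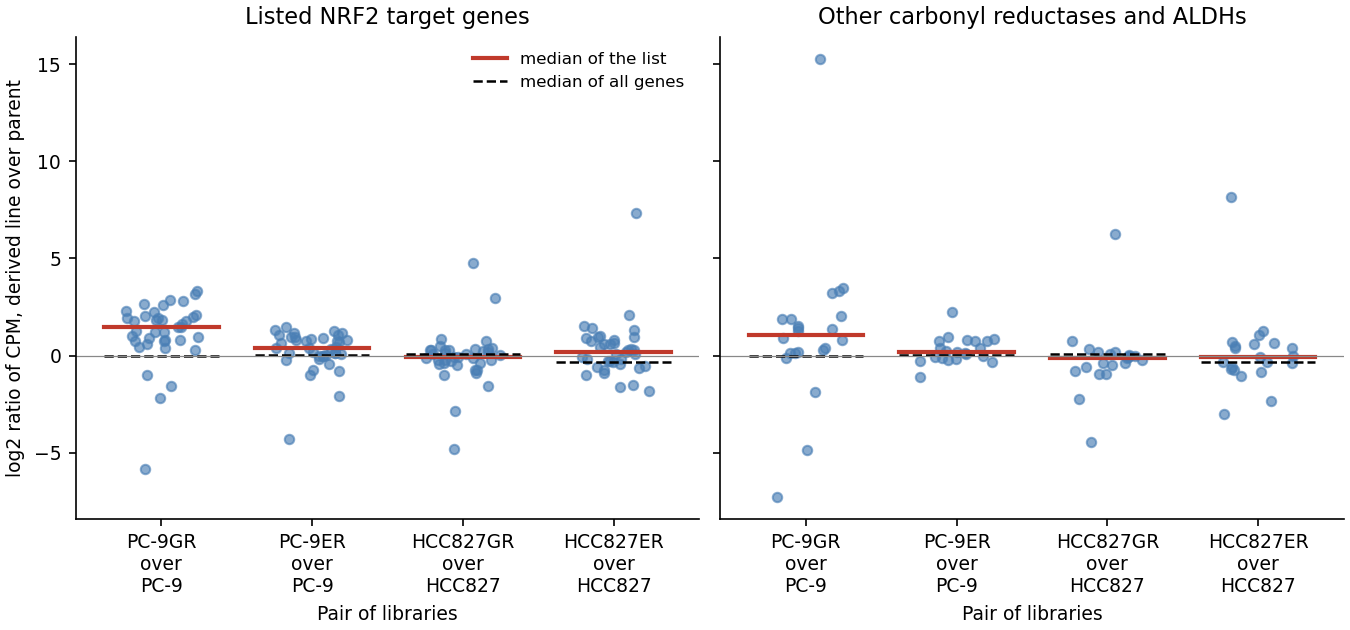
Log2 ratio of CPM, derived line over parent, for listed NRF2 targets (left) and for other carbonyl reductases and aldehyde dehydrogenases (right), each point a gene with at least 1 CPM in either library, with the list's median (red) and that of all genes (dashed). The NRF2 targets have a median of 1.47 in the PC-9GR pair and -0.06 in the HCC827GR pair.

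Other carbonyl-reducing enzymes and aldehyde dehydrogenases were more often higher than lower in the PC-9GR pair. There 11 of 22 were at least 2-fold higher and 3 lower (median log2 ratio 1.08), where all genes gave 20.9% each way. The counts were 1 and 1 of 21 in the PC-9ER pair (median 0.20), beside 5.49% and 7.60% of all genes, and 1 and 2 in HCC827GR (-0.11), beside 8.18% and 8.79%. In HCC827ER they were 3 and 3 (-0.08), beside 11.3% and 28.3%. With TMM scaling they were 4 and 2 there (0.28), beside 2227 and 2412 of 12599 genes with a median of -0.00. The counts of higher genes in these 3 pairs were thus near those of all genes. ALDH1A1, which oxidises retinaldehyde to retinoic acid, was at 7194 CPM in the library labelled PC-9GR, with 1 count in PC-9 and 0 in PC-9ER. It was at 2.34 CPM in HCC827 (34 counts), 187 in HCC827GR, 79.7-fold higher (56.9 to 115), and 698 in HCC827ER, 298-fold higher (213 to 431). ALDH1A3, which carries out the same step, was lower where ALDH1A1 was higher, with log2 ratios of -4.85, -0.11, -4.46 and -3.02. ALDH3A1 was at 937 CPM in the library labelled PC-9GR, against 93.9 in PC-9 and 92.3 in PC-9ER, and at 0 in the HCC827 family, where a count of 0 allows up to 0.206 CPM. DHRS2, a short-chain reductase, was at 192 CPM in PC-9 and 1.12 in the library labelled PC-9GR. In the fit 16 of 22 genes of this list were positive, with a median of 0.48 (14 of 22 and 0.18 without the library labelled PC-9GR), and 0 were called by edgeR.

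Enzymes that share substrates with the members gave different medians by list. By pair, the median log2 ratio of steroid and prostaglandin enzymes was 0.39, 0.22, 0.18 and 0.31. That of retinoid genes was -0.85, -0.15, -0.92 and -0.37, the last being -0.02 with TMM scaling. Polyol and osmotic genes had -0.34, -0.25, 0.17 and 0.32. The median of all genes was -0.02, 0.03, 0.06 and -0.35, the last being -0.00 with TMM scaling. Of the steroid and prostaglandin enzymes, 15 of 23 were positive in the fit (median 0.31) and 0 were called by edgeR. STS, which frees steroids from their sulfates, was lower in each derived line, with log2 ratios of -2.66, -0.75, -1.59 and -2.06. PTGS1, a cyclooxygenase, was at 75.4 CPM in HCC827, 5.68 in HCC827GR and 10.8 in HCC827ER, and at 0.355, 1.68 and 0 in PC-9, PC-9GR and PC-9ER. TBXAS1 was higher in each derived line, with log2 ratios of 5.74, 1.23, 1.05 and 0.56. Its level was 15.8 CPM in the library labelled PC-9GR and at most 1.27 elsewhere. HSD17B14 had log2 ratios of 1.60, 0.57, -0.65 and 2.20, with at most 0.752 CPM in the HCC827 family. Of the retinoid genes 8 of 18 were positive (median -0.25) and 0 called. At least 2-fold lower were 7 of 18 in the PC-9GR pair, 0 of 17 in PC-9ER, 7 of 14 in HCC827GR and 4 of 15 in HCC827ER. At least 2-fold higher were 2, 1, 1 and 3 in the same order. Of all genes 20.9%, 7.60%, 8.79% and 28.3% were lower, and 20.9%, 5.49%, 8.18% and 11.3% higher. CRABP2, a retinoic acid carrier, was at 418 CPM in HCC827, 7.88 in HCC827GR and 75.8 in HCC827ER. Of the polyol and osmotic genes, the setting of AKR1B1, 6 of 13 were positive (median -0.11) and 0 called. KHK, ketohexokinase, had log2 ratios of 1.73, 0.13, 0.83 and 2.19, and NFAT5, the osmotic transcription factor, -0.20, -1.21, -0.43 and -2.36.

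Across the 6 libraries the members' log2 CPM went together to different degrees, as a description over lines of 2 families that share their origins. Pearson's r was 0.94 between AKR1C1 and AKR1C2, 0.98 between AKR1C1 and AKR1C3, and 0.71 between AKR1B1 and AKR1B10. AKR1C paralogs can share reads, and the part of these in the first 2 values was not tested. Without the library labelled PC-9GR they were 0.95, 0.97 and 0.95. AKR1B1 and AKR1B10 were both higher in PC-9 than in HCC827, by 13.9-fold and 14.0-fold, a difference that enters these values. Against the parent they had log2 ratios of opposite sign in PC-9ER (0.23 and -0.50) and HCC827GR (0.80 and -0.62), as in the library labelled PC-9GR (-0.89 and 3.50). By the same measure, among 6222 tested genes that ranged at least 4-fold, the closest to the AKR1C sum were ARRB2, a beta-arrestin (r = 0.976), RRAS, a RAS relative (0.972), and GSDME, a pore-forming gasdermin (0.967), followed by CLU and SHF. GSDME was at 12.3, 54.6 and 67.6 CPM in PC-9, PC-9GR and PC-9ER and at 3.79, 12.0 and 28.6 in HCC827, HCC827GR and HCC827ER. CLU, the chaperone clusterin, was at 33.2, 398 and 109 CPM in the PC-9 family and at 10.7, 10.7 and 51.9 in the HCC827 family. SHF was at 0 to 1.74 CPM, so its likeness rests on few counts.

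The AKR1B genes had other companions. Closest to AKR1B10 were PRICKLE4 (r = 0.994), BEAN1 (0.990) and ASAH1, acid ceramidase (0.987), then PCK2, the mitochondrial phosphoenolpyruvate carboxykinase, and PAOX, a polyamine oxidase. PRICKLE4 was at 0.868 to 4.26 CPM, PAOX at 0.267 to 3.19, and BEAN1 at 0 in HCC827 and HCC827GR. The values of these 3 genes thus rest on few counts, whereas ASAH1 was at 27.4 to 156 CPM. PCK2 was at 12.9, 40.2 and 15.7 CPM in the PC-9 family and at 5.85, 5.54 and 13.5 in the HCC827 family. Closest to AKR1B1 were RTN2 (0.992), TLE2 (0.986) and FAM78A (0.981), then FAM131C and DHRS12. In HCC827 TLE2 was at 0.619 CPM and FAM78A at 0.551. RTN2, a reticulon, was at 33.3, 12.9 and 30.6 CPM in the PC-9 family and at 2.48, 3.47 and 14.5 in the HCC827 family, and so was low in HCC827 and HCC827GR, as AKR1B1 was. With 6 points, some of 6222 genes come close to any given pattern.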

How the data were processed

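The authors deposited expected counts, estimated per gene and unscaled, in 1 column per library and 2 tables of 16854 and 16306 genes, per the file headers. The submitters' processing notes name HISAT2 2.0.4, Cuffdiff and the build GRCh38.p13, while the counter was not given in the sources used here. Per the labels' protocols, libraries came from total RNA and a stranded kit with ribosomal RNA depletion (TruSeq Ribo-Zero). The members and gene lists were chosen with earlier results of these data known.

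CPM are counts per 1000000 of a library's own total. Log2 ratios of pairs used a prior count of 2, and a gene was counted where 1 of the 2 libraries had at least 1 CPM. Counting intervals (exact, or Wilson for shares) are at 95% and, like the floor of 3 counts, cover counting error only, since reads carry no molecular identifiers. Counts were rounded for edgeR 4.0.16 in R 4.3.3 (TMM, default expression filter, robust quasi-likelihood, Benjamini-Hochberg adjustment). The fit of all lines left 3 residual degrees of freedom. The fit for the comparisons within a family left 2, pooled over the derived lines of both families. DESeq2 1.42.0 and limma 3.58.1 (voom), other scalings, a prior count of 0.5, a 4-fold threshold and left-out libraries were the alternatives.

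Named were the members, all listed aldo-keto reductases, 8 NRF2 genes, the 4 largest fitted changes per pathway list among genes with at least 10 CPM in a library, the 5 closest profiles and the 3 nearest protein-coding genes on either side. Marker genes were picked from their lists after their values were seen. AKR1C8, AKR1C8P, AKR7L and the neighbour UCN3 had no entry under these symbols in the deposited counts. Gene positions and coding sequences are from GENCODE v29, promoter windows from RefSeq (4 of the 5 members matched).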

Additional observations from a re-analysis of the deposited data

Results flagged for a closer look

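NFE2L2, which encodes NRF2, was slightly higher than the parent in both derived lines of PC-9 (log2 ratios 0.30 and 0.29) and lower in both derived lines of HCC827 (-0.67 and -1.33). The family means differed by 1.29 on the log2 scale, or by 1.16 with TMM scaling. RTN2 was lower in both PC-9 derivatives (-1.36 and -0.12) and higher in both HCC827 derivatives (0.47 and 2.49), a difference of -2.22. FAM131C had the same pattern (-1.60 and -0.37 against 0.26 and 2.42), a difference of -2.32, and both genes were named for their likeness to AKR1B1. AKR7A2 also had opposite signs (-0.11 and -0.06 against 0.02 and 0.69), a difference of -0.44, and with TMM scaling its value in HCC827GR was -0.02, so the opposition was lost. Each of these was noted because all derived lines of a family went the same way and those of the other family the opposite way. The difference was not tested for any of them. Both lines of a family are compared with the same parental library.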

How the results depend on the processing

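The numbers of members at least 2-fold higher (4, 3, 2 and 5 in the PC-9GR, PC-9ER, HCC827GR and HCC827ER pairs) were the same with TMM sizes, with DESeq2 size factors and with a prior count of 0.5. At 4-fold the HCC827GR count was 1 in place of 2. With AKR1C1 to AKR1C3 summed as 1 feature of 3, the counts were 2, 1, 1 and 3, by construction with fewer features. Of 60 alternative values of the 20 member ratios none changed sign, 50 stayed within the counting interval, and the largest move was 0.37 (DESeq2 size factors, HCC827ER). After the data had been seen, the 4 pairs were also taken without HCC827ER and without the library labelled PC-9GR: AKR1C1 and AKR1C2 remained the 2 members at least 2-fold higher in every pair left, and AKR1C2 kept its rank. The genes that met this numbered 56, 107 with a prior count of 0.5, 66 with TMM sizes, and 100 and 104 without these libraries, where fewer pairs had to pass.

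By edgeR 0 genes were called in any of the 3 comparisons, also with DESeq2 size factors and without the filter. DESeq2's own test called 34 across all lines, 102 in the PC-9 family and 44 in the HCC827 family, and the cause was not tested. Leaving out 1 library at a time gave 0 to 0 across all lines, 0 to 1223 in the PC-9 family and 0 to 161 in the HCC827 family. No paired analysis was possible because the labels carry no replicate numbers to pair by, and the family of a line was the block of the fit of all lines. Depth limits AKR1C1 and AKR1C2 in HCC827, at 8 and 11.02 counts.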

Other observations

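Markers of lung and of other cell identities were also uneven among the lines in which the members were high. KRT5 and KRT6A, keratins of basal and squamous epithelium, were at 97.6 and 18.3 CPM in PC-9ER, against 5.92 and 0.955 in PC-9. In the library labelled PC-9GR, KRT5 and KRT6A had 0 counts, and SOX2, a squamous lineage factor, was at 13.4 CPM against 2.37 in PC-9. HNF4A, a liver and gut transcription factor, was at 52.8 CPM in that library and at 0 to 0.696 in the other 5. The other measured hepatocyte markers in that library were ALB and APOA1 at 0 CPM, SERPINA1 at 0.280 and TF at 11.7. SERPINA1, which encodes alpha-1-antitrypsin, was at 97.0 CPM in HCC827, 9.88 in HCC827GR and 209 in HCC827ER. NKX2-1, the lung lineage factor, was at 15.2 CPM in HCC827, 2.74 in HCC827GR and 0 in HCC827ER. CDH5, a cadherin known from endothelium, was at 151 CPM in PC-9, 32.8 in PC-9ER and 0.112 in the library labelled PC-9GR. In the same order PECAM1 of that list was at 68.6, 22.7 and 0 CPM, whereas COL1A1 went the other way, at 22.5, 41.0 and 30.2. The part of these differences in the members' levels was not tested.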
